A study of Mus musculus with 65 samples.

Results

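The comparison described here is that of p3 progenitors on day 6 with p3 progenitors on day 5 of a spinal cord differentiation of mouse embryonic stem (ES) cells. It rests on 11 of the 65 RNA-seq libraries of the series, chosen by their labels for cell type, day and concentration of SAG. SAG, an agonist of Smoothened, stands in for the ligand Sonic hedgehog (Shh). On day 5 there were 3 libraries at 100 nM and 3 at 500 nM SAG, and on day 6 there were 3 libraries at 100 nM (replicates 1 to 3) and 2 at 500 nM (replicates 1 and 3). All came from the HM1 line. Every culture received bFGF with LGK, which blocks WNT secretion, and then bFGF with the WNT pathway agonist CHIR99021 and the TGF-beta and BMP receptor inhibitors SB-431542 and DMH1, before 100 nM retinoic acid together with SAG from day 3 until fixation. The p3 cells were sorted after fixation by staining for transcription factors inside the cell, as SOX2-positive, NKX2.2-positive and OLIG2-negative. The replicates are independent differentiations of 1 cell line, and the stem cells had been kept on fibroblast feeders that were removed before differentiation. The pMN, p2 and p0-1 progenitors of days 5 and 6, in 35 libraries from 100 and 500 nM (pMN), 10 and 100 nM (p2) and 0 and 10 nM SAG (p0-1) of the same protocol, serve below only to show where p3 differs.

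In the embryo p3 is the most ventral progenitor domain of the spinal cord next to the floor plate, and it produces V3 interneurons and, in the hindbrain, visceral motor neurons. Neural progenitors divide for some days and then leave the cycle as neurons, while proteins of early development such as the RNA-binding protein LIN28A are shut off and microRNAs such as let-7 and miR-9 accumulate. Retinoic acid, which these cultures received from day 3, enters cells freely, is carried by cellular binding proteins to nuclear receptors and is degraded by enzymes of the CYP26 family.

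Between day 5 and day 6 few genes of p3 cells passed the test, and their number depended on the fit. Of 13964 genes tested, 26 (0.186%) passed an adjusted p of 0.05 (limma), 16 higher on day 6 (0.115%) and 10 lower (0.0716%). Among the genes that fell were Crabp2, a carrier of retinoic acid, Lin28a, the gap junction gene Gja1, the translational repressor gene Eif4ebp1 and the ribosomal protein genes Rplp0 and Rpl41. Among those that rose were the retinoic acid-degrading enzyme gene Cyp26b1, the chaperone gene Hspa5 and the host transcript of a miR-9 locus. At an unadjusted p below 0.05 there were 1421 genes (10.2%), and 3 genes, C1qtnf3, Sphkap and Crabp2, passed an adjusted p of 0.01 with a change of more than 2-fold (0.0215%). The spread in this test was taken from all 65 libraries, and a fit to the 11 p3 libraries alone called 0 genes, with 960 at an unadjusted p below 0.05, a lowest adjusted p of 0.0588 and the same direction for all 26. On the recovered read counts edgeR called 8 genes (3 higher and 5 lower) and DESeq2 1020 (473 and 547), and quantile normalization gave 19 higher and 20 lower.

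**Figure D1:**
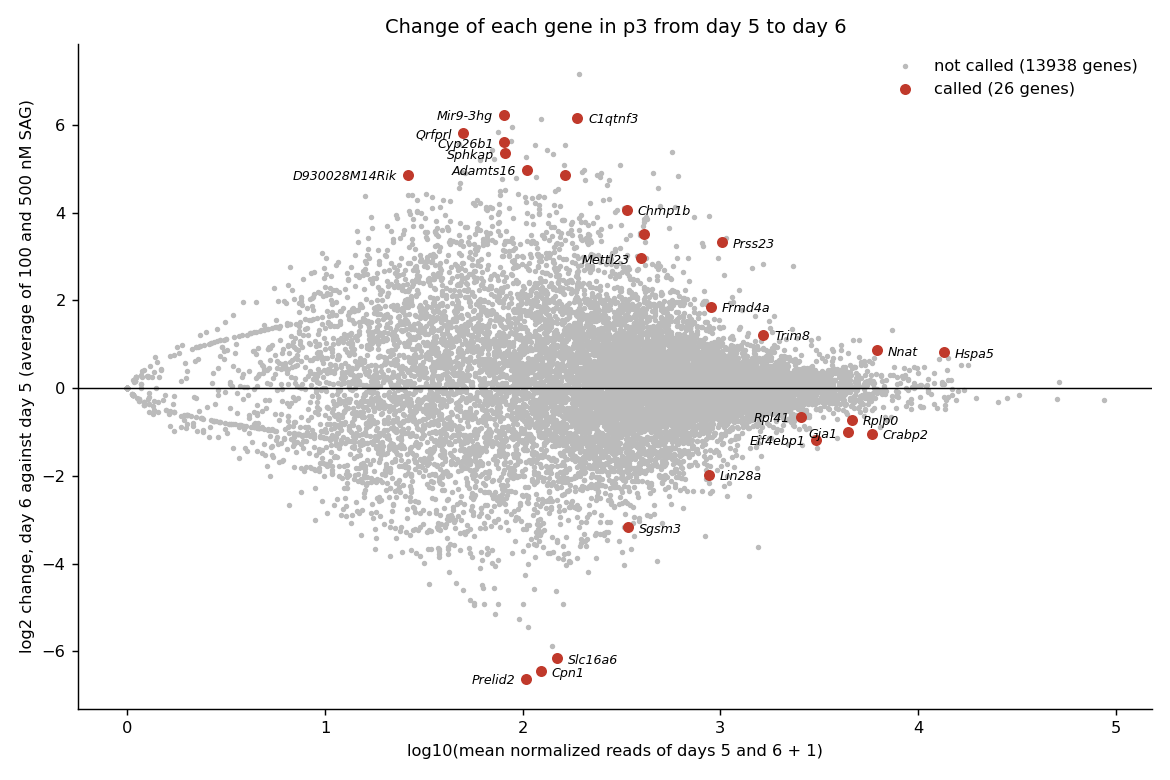
Each point is a gene, placed by its mean level in p3 over both days on a log10 axis and by its log2 change from day 5 to day 6, with called genes in red and most of them named. The 26 called genes lie between log2 changes of -6.62 and 6.24; the smallest called changes, such as those of Hspa5 and Rpl41, belong to abundant genes.

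The 11 libraries held between 9641634 and 13175196 reads assigned to genes. Neither the totals nor the number of genes with a read differed between days (two-sided exact permutation within SAG concentration, 200 arrangements, p = 0.72 and p = 0.81). Replicate 2 at 100 nM had the fewest genes detected of its day on both days, 10571 and 10338, against up to 13751 on day 5 and 14088 on day 6. Without these 2 libraries, an alternative added after seeing the data, 24 genes were called, of which 11 were among the 26. The calls of Crabp2, Lin28a, Eif4ebp1, Trim8, Sgsm3, Mir9-3hg, C1qtnf3, Sphkap, Adamts16 and D930028M14Rik held. Lost were 15 calls, each in the same direction, among them Slc16a6 (limma adjusted p = 0.0534), Nnat (0.0808), Cpn1, Prelid2 and Prss23 (each 0.0833), Hspa5 (0.0951), Gja1 (0.104), Chmp1b and Qrfprl (each 0.106), Cyp26b1 (0.107), Rplp0 (0.108), Rpl41 (0.149), Mettl23 (0.150) and Frmd4a (0.232). All values are normalized reads, the authors' read counts divided by a size factor for the library. The text gives them for replicates 1, 2 and 3 at 100 nM and then at 500 nM, where day 6 has replicates 1 and 3.

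The sort was checked on the marker genes. Nkx2-2, whose protein was used for the gate, had 121 to 426 normalized reads in the 11 p3 libraries and at most 98.1 in any library of the other types on these days. Foxa2 (232 to 3100.3 in p3 and up to 368 elsewhere), Nkx2-9 (505 to 2394 in p3) and Nkx6-1 (361 to 893 in p3) overlapped with the other types. Of 5 markers of more dorsal progenitors, Dbx1 and Prdm12 had 0 reads in all 11, and Dbx2 had at most 42.1. The other 2 had reads in all 11. Irx3 was at 293 to 1551 on day 5 and 271 to 1676 on day 6, and Pax6 at 60.4 to 717 and then 10.2 to 236. The pan-neuronal tubulin gene Tubb3 was present in every library, at 9.68 to 1706, whereas Sim1, Uncx and Slc17a6, which mark V3 neurons, were at or near 0, with a highest value of 14.6. These are bulk samples, so fewer cells of a type and less RNA per cell cannot be told apart.

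The genes that define the gate did not pass the test between days. Nkx2-2, a repressor that specifies p3, had 315, 352 and 291 normalized reads at 100 nM and 196, 146 and 121 at 500 nM on day 5, and 426, 214 and 295 followed by 211 and 236 on day 6. The days overlapped, with a log2 difference of 0.23 (SE 0.92, limma adjusted p = 0.972). Sox2, the pan-progenitor factor, stood at 1324, 2373 and 1222 then 1422, 2028 and 2479.8 on day 5 and at 1768, 2480.3 and 1972 then 1741 and 2266 on day 6, a difference of 0.22 (SE 0.30, adjusted p = 0.881). Olig2, the pMN determinant whose protein was gated out, was nonetheless measured at 649.6, 502 and 1004 then 775, 769 and 435 on day 5. On day 6 it read 1532, 0 and 1741 then 975 and 673, so that the single 0 of replicate 2 at 100 nM set the sign of its log2 difference, which was -0.99 (SE 1.18) with that library and 0.79 without it.

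The other patterning genes did not pass the test either. Foxa2, a forkhead factor of floor plate and early p3, was at 977, 427 and 499.6 then 1365, 232 and 1773 on day 5 and 756, 453 and 2341 then 907 and 3100.3 on day 6 (0.83, SE 1.71, limma adjusted p = 0.923). Nkx6-1, shared by the ventral domains, was at 523, 361 and 583 then 565, 733 and 419 on day 5 and 893, 811 and 459 then 387 and 769.7 on day 6 (0.25, SE 0.72, adjusted p = 0.955). Pax6, which Shh signaling lowers, ran from 60.4 to 717 on day 5 and from 10.2 to 236 on day 6 (-1.30, SE 0.58, adjusted p = 0.415). Each of these genes overlapped between days. Nkx2-9, a close relative of Nkx2-2, did not overlap, at 1135 to 2394 on day 5 and 505 to 1058 on day 6, but its log2 difference of -1.13 (SE 1.02) did not pass the test (adjusted p = 0.773). The SE of Nkx2-9, too, comes from all 65 libraries, and a missed threshold does not show a stable level. Over the 14 ventral patterning factors tested 0 were called, and their median log2 change was 0.12 (0.22 without replicate 2 at 100 nM on either day) beside 0.03 for all genes.

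Genes that carry and clear retinoic acid moved in both directions. Crabp2 encodes a cytosolic protein that delivers retinoic acid to its receptors. It was at 6851, 7504 and 9246 at 100 nM and 5838, 8469 and 8301 at 500 nM on day 5. On day 6 it was at 5008, 3974 and 3806 then 4296 and 2454. Every day 6 library lay below every day 5 library, and the mean fell from 7702 ± 1230.3 (SD, n = 6) to 3908 ± 934 (n = 5), a log2 change of -1.04 with an SE of 0.16 (limma adjusted p = 0.000114). The call held when any 1 of the 11 libraries was left out, with adjusted p of at most 0.0303. Its paralog Crabp1 likewise did not overlap between days, at 2952 to 5579.7 and then 936 to 2747, although the difference of -1.37 (SE 0.41) missed the threshold (adjusted p = 0.163).

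Cyp26b1, an enzyme that degrades retinoic acid, rose. It had reads in 1 of 6 libraries on day 5 (27.1 in replicate 1 at 500 nM) and in all 5 on day 6, at 122, 396 and 168 then 16.5 and 71.7. Replicate 1 at 500 nM of day 5 was the 1 library of that day that reached into the day 6 range. The log2 change was 5.61 (SE 1.27, adjusted p = 0.0356 by limma), and the call was lost in 6 of the 11 fits that left out a library, with adjusted p up to 0.214.

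Most of the retinoic acid list did not pass the test. Of 21 listed genes 17 were tested, and the median log2 change was -0.06. Called were 2 that rose, among them Cyp26b1 (0.115% of all genes), and 1 that fell, Crabp2 (0.0716% of all genes). Cyp26a1, a close homolog of Cyp26b1, had reads in 2 of 6 libraries on day 5 and 2 of 5 on day 6 (0.66, SE 1.92, limma adjusted p = 0.955). The receptor gene Rarb, itself a known retinoic acid target, was at 647 to 1332 and then 531 to 2160.0 (-0.06, SE 0.38, adjusted p = 0.985). Because all these genes belong to 1 signaling pathway, their promoters were searched for the direct repeats to which retinoic acid receptors bind, here any pair drawn from the consensus AGGTCA and its variants spelled AGTTCA or spelled GGGTCA or spelled GGTTCA, in 1 orientation with 2 or 5 bases between, on both strands. Such a repeat stood in 120 of 32851 mouse promoters (0.365%), taken as 250 bases before to 50 after the RefSeq start. A promoter was found for 16 listed genes, of which 2 held a repeat, and for 17 called genes, of which 0 did. The repeats of Rarb (promoter chr14:16575427-16575726, minus strand) and Cyp26a1 (chr19:37697558-37697857, plus strand, repeat on the opposite strand), build mm10, are printed because they are the elements of the list that a script found, with the repeat in capitals.
Rarb: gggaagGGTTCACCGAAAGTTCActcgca
Cyp26a1: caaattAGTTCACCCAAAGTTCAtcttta
A match of letters says nothing on binding in these cells, and neither gene that holds one was called.

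**Figure D2:**
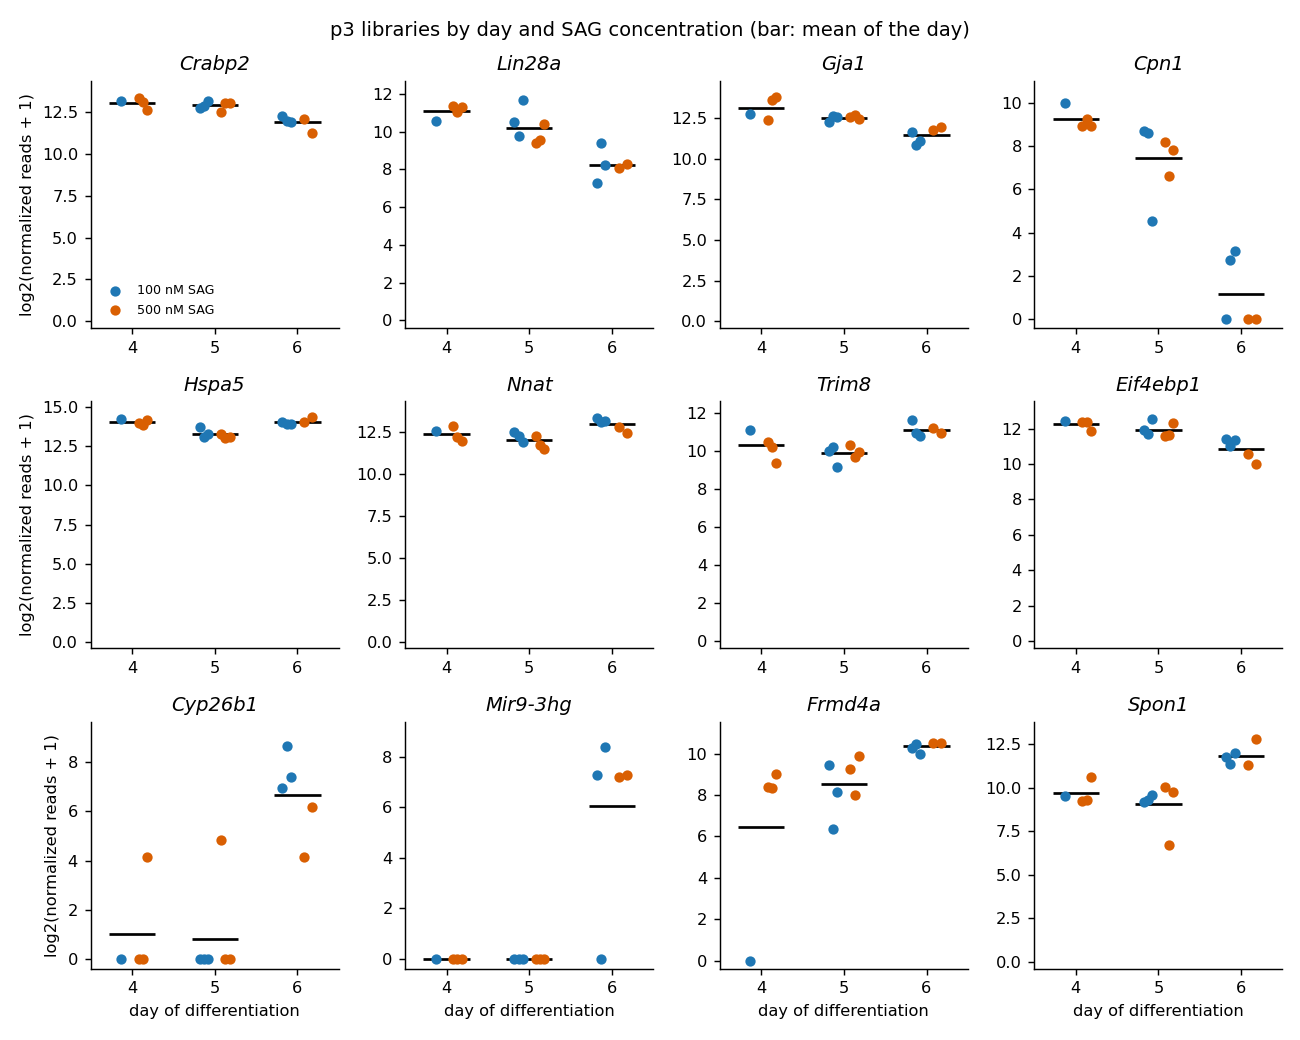
Values of 12 genes in each p3 library, as log2(normalized reads + 1), by day of differentiation, with 100 nM SAG in blue, 500 nM in orange and a bar at the mean of the day. Crabp2, Lin28a, Gja1, Cpn1 and Eif4ebp1 lie lower in all day 6 than in all day 5 libraries, Hspa5, Trim8, Frmd4a and Spon1 lie higher, and Cyp26b1 and Mir9-3hg have several libraries at 0 on day 5.

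Lin28a, whose protein blocks the maturation of let-7, fell from day 5 to day 6. It was at 1438, 871 and 3300.0 then 687, 761 and 1347 on day 5 and at 154, 675 and 302 then 271 and 308 on day 6. The days did not overlap, and replicate 3 at 100 nM was well above the other day 5 libraries. The mean went from 1401 ± 981 (n = 6) to 342 ± 196 (n = 5), a log2 change of -1.98 with an SE of 0.38 (limma adjusted p = 0.0122). The call was lost without replicate 1 or replicate 3 at 500 nM of day 6, at adjusted p of 0.0551 and 0.0581. On day 4 the 4 p3 libraries averaged 2223 ± 519.8, and the step from day 4 to day 5 was not called (-0.69, adjusted p = 0.374). Lin28b, its paralog, was at 423 to 1746 and then 162 to 969 (-1.16, SE 0.54, adjusted p = 0.443).

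Mir9-3hg, the spliced host transcript of a miR-9 locus (chr7:79500026-79534403, plus strand), was at 0 in all 6 libraries of day 5 and all 4 of day 4. On day 6 it had 156, 0 and 333 normalized reads at 100 nM and 148 and 155 at 500 nM, with replicate 2 at 100 nM the only library at 0. Its day 6 mean of 158 ± 118 was at least 62.9-fold higher than 3 reads per library, the floor that 0 reads allow (fitted log2 change 6.24, SE 1.34, limma adjusted p = 0.0254). The adjusted p rose to 0.120 without replicate 1 at 500 nM of day 6. The mature miRNAs were not measured by this assay, and the hairpin entries of the 3 miR-9 loci had 0 reads. Of 18 genes listed as heterochronic or oncofetal, Lin28a was the 1 called, where 0.0716% of all genes were called lower. In this list 7 were fitted higher and 11 lower, and the median log2 change was -0.10.

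The sequences of the miRNAs that bear on these 2 transcripts are printed with their seed, bases 2 to 8, in capitals. Both arms of miR-9 come from within Mir9-3hg, at chr7:79505279-79505301 and chr7:79505318-79505339 on the plus strand, while let-7a (chr13:48538239-48538260, minus strand) and miR-125b (chr16:77646279-77646300, plus strand) are the families classically paired with Lin28a. Mature sequences and positions are those of RefSeq, build mm10.
miR-9-5p: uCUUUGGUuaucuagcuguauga
miR-9-3p: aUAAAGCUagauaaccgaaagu
let-7a-5p: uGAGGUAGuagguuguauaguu
miR-125b-5p: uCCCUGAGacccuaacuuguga
The 4 seeds differ from each other. The 3′ UTR of Lin28a (gene at chr4:134003330-134018816, minus strand, 2775 bases of 3′ UTR in the GENCODE annotation) held the reverse complement of the miR-9-5p seed, ACCAAAG, once, that of let-7, CTACCTC, at 2 places, and that of miR-125b, CTCAGGG, once, each shown in capitals, while that of miR-9-3p, AGCTTTA, was found 0 times.
miR-9-5p match, chr4:134003603-134003632: tgtttactgctagaaACCAAAGctttgtga
let-7 match, chr4:134005182-134005211: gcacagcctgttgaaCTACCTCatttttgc
let-7 match, chr4:134004544-134004573: gagatcgccacaaacCTACCTCactgtgtt
miR-125b match, chr4:134005294-134005323: aggtacatgagcaatCTCAGGGataataag
Such heptamers are common in windows of that length. Among 3238 mouse 3′ UTR windows 24.2% held the miR-9-5p match, 23.7% the miR-9-3p match, 16.1% the let-7 match and 23.1% the miR-125b match, and the matches are a description of the sequence only.

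Genes of the endoplasmic reticulum and the cell surface were among the more abundant calls. Hspa5 encodes BiP, the main chaperone of the endoplasmic reticulum. It was at 13483, 8903 and 9788 then 9997, 8454 and 8861 on day 5 and at 16791, 15722 and 15198 then 16779 and 21019 on day 6. All day 6 libraries were above all day 5 libraries (9914 ± 1845 to 17102 ± 2295, log2 change 0.82, SE 0.17, limma adjusted p = 0.021). From day 4 to day 5 Hspa5 had fallen by 0.88 on the log2 scale (adjusted p = 0.00131), and its day 4 mean of 17348 ± 2235 (n = 4) was close to that of day 6. The 2 contrasts share the day 5 libraries.

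Nnat, an imprinted gene for a small membrane protein of the endoplasmic reticulum (chr2:157560078-157562525), was at 5703, 4878 and 3863 then 4956, 3375 and 2877 on day 5. On day 6 it was at 10111, 8792 and 8885 then 6981 and 5442, and only replicate 3 at 500 nM lay within the day 5 range. It rose by 0.86 on the log2 scale (SE 0.20, limma adjusted p = 0.0379). Gja1, which encodes connexin 43 of gap junctions (chr10:56377300-56390419), was at 4993, 6251 and 6017 then 6139, 6619 and 5476 on day 5 and 3179.7, 1858 and 2159.8 then 3427 and 3946 on day 6. Its libraries did not overlap, and it fell by 1.01 on the log2 scale (SE 0.21, adjusted p = 0.021) from 5916 ± 585 to 2914 ± 878. Without replicate 1 at 500 nM of day 6 the adjusted p was 0.257 for Nnat and 0.146 for Gja1.

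A pair of regulatory genes rose without overlap between days. Trim8, a tripartite motif E3 ubiquitin ligase (chr19:46501648-46516455), stood at 1027, 1204 and 578 then 1297, 842 and 999.8 on day 5. It stood at 3172, 2026 and 1815 then 2428 and 2024 on day 6 (log2 change 1.22, SE 0.25, limma adjusted p = 0.021). Frmd4a, a FERM domain scaffold of epithelial polarity (chr2:4017683-4614043), was at 707, 81 and 284 then 608, 258 and 931 on day 5 and 1247, 1401 and 1009 then 1431 and 1475 on day 6 (1.85, SE 0.43, adjusted p = 0.0404). Frmd4a had already risen from day 4 to day 5 (4.23, adjusted p = 4.21e-09), a contrast that called 10.4% of genes and shares the day 5 libraries. Over all calls 12 of 26 genes did not overlap between days (0.845% of all genes tested), 4 of them higher (0.48%) and 8 lower (0.365%). The calls were made on these same libraries, so this count is a description and no separate support.

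Genes of the translation machinery were mostly fitted lower on day 6, and 3 of those named here fell. Eif4ebp1, which encodes a repressor of cap-dependent translation (chr8:27260327-27275656), was at 3885, 3372 and 5912 then 3007, 3145 and 5129.7 on day 5. On day 6 it was at 2705, 2036 and 2670.1 then 1508 and 1019.8, without overlap (log2 change -1.18, SE 0.25, limma adjusted p = 0.021). Rplp0, of the ribosomal stalk, fell from 5698 ± 1042 to 3556 ± 700.4 (-0.72, SE 0.17, adjusted p = 0.0404). Rpl41 fell from 3084 ± 484 to 2012 ± 328 (-0.65, SE 0.15, adjusted p = 0.0325), and both lay lower in all day 6 libraries. The 81 ribosomal protein genes were listed only after values were seen. Among them 79 were fitted lower, 43 at an unadjusted p below 0.05 (4.8% of all genes in that direction), with a median log2 change of -0.46. Of these genes 2 were called, where 0.0716% of all genes were called lower. The median ran from -0.42 to -0.49 under other scalings and without replicate 2 at 100 nM, and stood at -0.26 in pMN, -0.27 in p2 and -0.18 in p0-1. Of the calls that fell, Rplp0 was the most dependent on single libraries, lost in 8 of 11 fits.

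Floor plate genes were all fitted higher on day 6, and 1 of the 12 tested was called, where 0.115% of all genes were called higher. The genes named here were not called. Spon1, the secreted adhesion protein F-spondin, was at 584, 639 and 777 then 1044, 102 and 853 on day 5 and at 3453, 2673 and 4152 then 2525 and 7093 on day 6. The libraries did not overlap (2.79, SE 0.71), yet the gene missed the threshold (limma adjusted p = 0.0799). Slit2, a repulsive axon guidance ligand, was at 0 to 423 and then 400.5 to 2293 (4.84, SE 1.32, adjusted p = 0.109). Shh itself had 250.1, 0.88 and 399.7 then 106, 9.54 and 339 on day 5 and 133, 151 and 952 then 344 and 1335 on day 6 (2.72, SE 1.20, adjusted p = 0.413), with the days overlapping. Of 19 listed floor plate genes 12 were tested, all 12 fitted higher (7205 of all 13964 genes were) and 5 at an unadjusted p below 0.05 (5.38% of all genes), at a median log2 change of 2.38. The median was 1.75 at 100 nM alone and 1.41 at 500 nM alone. It was 1.95 to 2.36 under 2 other scalings and 1.51 without replicate 2 at 100 nM on either day. The summed list ran from 7488 to 12956 normalized reads on day 5 and from 17161 to 40775 on day 6, and of its defining markers Foxa1 had 0 reads in 2 day 5 libraries and Shh in none. The part of floor plate cells in the p3 gate was not tested.

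**Figure D3:**
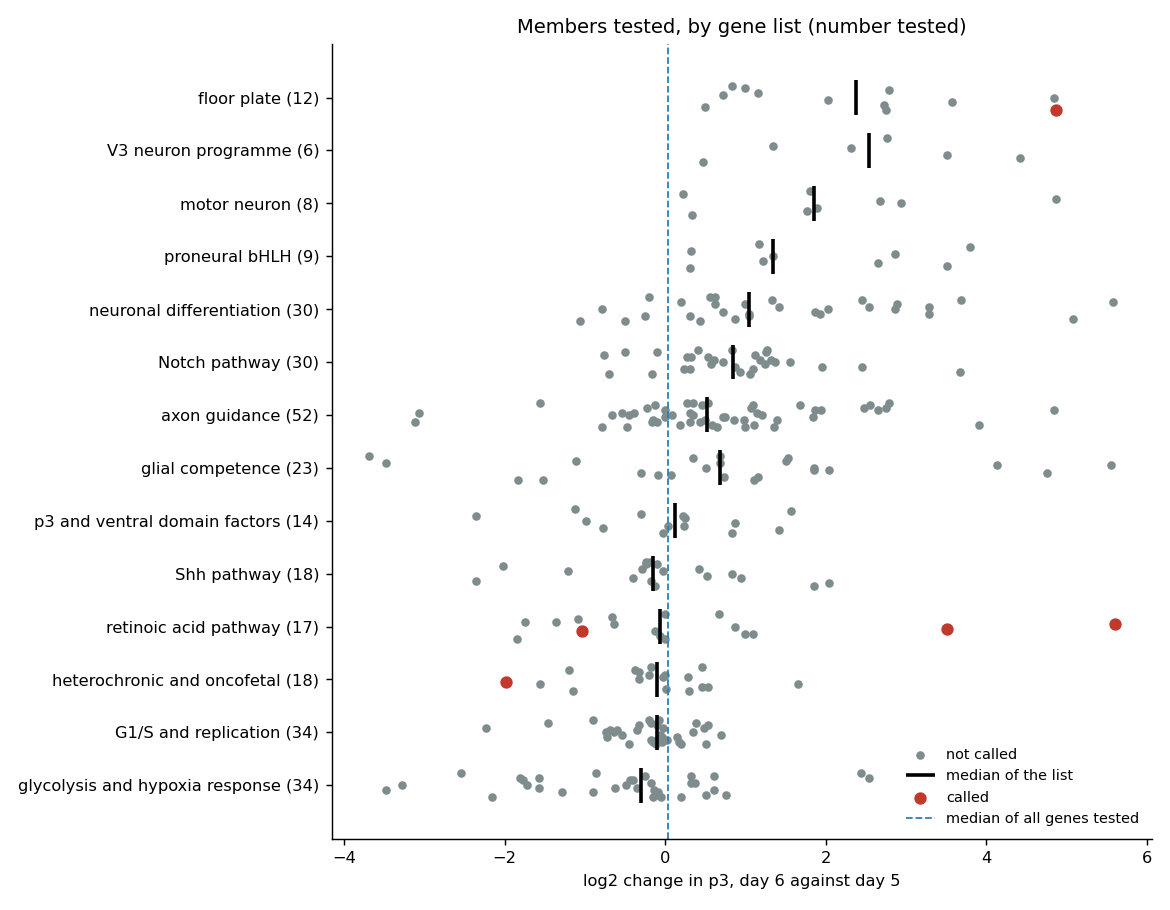
Each point is a tested member of a gene list, placed by its log2 change in p3 from day 5 to day 6, with called members in red, the list median as a black bar and the median of all genes as a dashed line. The medians of the floor plate, V3 neuron, motor neuron, proneural and neuronal lists lie between 1.05 and 2.54. These lists hold 1 called member in all, where 0.115% of all genes were called higher.

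Genes of neurogenesis were mostly fitted higher, and 0 of them were called. Of 30 pan-neuronal differentiation genes 25 were fitted higher, 8 at an unadjusted p below 0.05 (5.38% of all genes in that direction). The median log2 change of these genes was 1.05. Their sum ran from 5466 to 8845 normalized reads on day 5 and from 11383 to 17853 on day 6. Nefm, the medium neurofilament, was at 0 in all 6 day 5 libraries and at 27.3, 0 and 179 then 143 and 119.9 on day 6 (5.57, SE 1.32, limma adjusted p = 0.0506), though its exons overlap an antisense gene and the strand setting of the counting is not stated. In pMN, p2 and p0-1 the same list had medians of 1.403, 1.12 and 1.27.

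The proneural genes, whose bHLH proteins start neuronal differentiation, gave 9 of 9 tested members fitted higher, with a median of 1.34. Of them 3 were at an unadjusted p below 0.05 (5.38% of all genes in that direction). The median was 0.79 at 100 nM and 2.71 at 500 nM, and 2.96 without replicate 2 at 100 nM on either day. Proneural medians in pMN, p2 and p0-1 were 1.89, 0.92 and 1.61. Neurog2 was at 0, 0 and 234 then 58.6, 48.6 and 29.2 on day 5 and at 318, 550.1 and 206 then 295 and 86.1 on day 6 (3.80, SE 0.95, limma adjusted p = 0.073). The Notch pathway list, which holds the ligands and targets that keep neighbors as progenitors, had 25 of 30 members fitted higher and a median of 0.85. Only 2 were at an unadjusted p below 0.05, a share near the 5.38% of all genes. Among motor neuron genes 8 of 8 tested were fitted higher, 2 at an unadjusted p below 0.05 (5.38% of all genes), with a median of 1.85. Medians of the motor neuron list in pMN, p2 and p0-1 were 1.57, 0.80 and 0.50. Isl1, a LIM homeobox gene of motor neurons, was at 144, 0 and 0 then 17.5, 19.1 and 24.1 on day 5 and at 1196, 74.3 and 255 then 389 and 278 on day 6 (4.87, SE 1.20, adjusted p = 0.0711). The summed motor neuron list was at 1002 to 4666 and then 3896 to 5117. Of 12 V3 neuron genes 6 were tested, all fitted higher, 3 at an unadjusted p below 0.05 (5.38% of all genes). Their median was 2.54, and the list had sums of 96.8 to 781 and then 289 to 1608. Those 6 were Lmo4, Pou2f2, Nhlh1, Nhlh2, Onecut1 and Onecut2, which other neurons express too. Sim1, Olig3, Slc17a6, Uncx and Neurog3 were too low to be tested and were at 0 in all day 6 libraries, with highest day 5 values of 14.6 for Sim1, 178 for Olig3 and 0.73 for Slc17a6. The part of neurons in the p3 gate was not tested.

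Axon guidance genes were fitted higher in 37 and lower in 14 of 52 tested cases, with 0 called and a median of 0.51, where 7205 of all 13964 genes were fitted higher. In 5 of them every day 6 library lay above every day 5 library (0.48% of all genes). Nrp1, a receptor for semaphorins, was at 0 to 637 on day 5 and 755 to 1985 on day 6 (3.91, SE 1.10, limma adjusted p = 0.122). Genes of glial competence had a median of 0.68 over 23 tested, with 16 fitted higher. The Shh pathway list had 6 members fitted higher and 12 lower of 18 tested, with a median of -0.15, in cultures whose SAG concentration did not change between the days.

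Of the listed genes of the cell cycle and of glucose use 0 were called. In the G1/S and replication list 24 of 34 genes were fitted lower (median -0.11), 7 at an unadjusted p below 0.05 (4.8% of all genes in that direction). The 38 genes of G2/M divided into 19 higher and 19 lower (median -0.015). In the glycolysis and hypoxia list 24 of 34 were fitted lower, 10 of them at an unadjusted p below 0.05 (4.8% of all genes), and the median was -0.30. Ldha, which makes lactate, was at 2308 to 5304 on day 5 and 521 to 2049 on day 6, without overlap (-1.29, SE 0.37, limma adjusted p = 0.135). Gapdh, also without overlap, went from 12065 ± 1478 to 9014 ± 967 (-0.44, SE 0.12, adjusted p = 0.112). Lists for cells that should be absent called 0 members. The fibroblast and feeder list had 7 of 12 genes tested, sums of 235 to 1139 and then 689 to 2100.2, and a median of 1.11, which was 0.67 with quantile normalization and -0.37 without replicate 2 at 100 nM on either day. The endoderm list had 6 of 14 tested, sums of 630 to 2163 and then 422 to 968, and a median of -0.42, or -0.22 without those libraries.

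The largest fitted changes belonged to genes with 0 reads in most libraries of 1 day. Cpn1, the catalytic subunit of the secreted carboxypeptidase N (chr19:43956308-43986520), was at 420.1, 389 and 22.6 then 295, 98.9 and 228 on day 5 and at 0, 5.58 and 7.78 then 0 and 0 on day 6 (log2 change -6.45, SE 1.42, limma adjusted p = 0.0298). On day 4 it had averaged 650.3 ± 259. Prelid2, of a family of mitochondrial lipid transfer proteins, was at 187, 186 and 179 then 228, 218 and 171 on day 5, and on day 6 only replicate 3 at 100 nM had reads, 59.3 (-6.62, SE 1.38, adjusted p = 0.021). Slc16a6, a monocarboxylate transporter family gene, was at 45.2 to 556 on day 5, and on day 6 only replicate 3 at 500 nM had reads, 90.2 (-6.16, SE 1.25, adjusted p = 0.0204). Its exons overlap those of Arsg on the other strand. Sgsm3, a TBC domain gene that overlaps Mrtfa, was near 0 on day 6 at 100 nM alone, at 5.63, 4.65 and 0 beside 648 and 382 at 500 nM (-3.17, SE 0.70, adjusted p = 0.0298). It was the 1 called gene of 26 whose change differed in sign between the concentrations.

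Some genes were first detected, or nearly so, on day 6. C1qtnf3, a secreted protein of the C1q and TNF family (chr15:10952332-10980162), was at 0 in all 6 day 5 libraries and at 0, 0 and 378 then 511 and 989 on day 6. That is at least 149-fold above 3 reads per library (fitted log2 change 6.17, SE 0.89, limma adjusted p = 7.69e-05). Sphkap, which anchors protein kinase A (chr1:83255444-83408200), was at 0, 0 and 0 then 195, 0 and 0.859 on day 5 and 22.5, 141 and 67.1 then 143 and 265 on day 6 (5.36, SE 0.69, adjusted p = 7.59e-06). Qrfprl, a G protein-coupled receptor gene, was at 0 throughout day 5 and at 114, 229 and 87.5 then 45.2 and 11.3 on day 6, at least 38.7-fold above 3 reads per library (5.81, SE 1.31, adjusted p = 0.0356). D930028M14Rik, also at 0 throughout day 5, had 61.9, 0 and 40.8 then 118 and 30.7, at least 20.0-fold higher (4.87, SE 1.06, adjusted p = 0.0271).

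The remaining calls were higher on day 6 with overlap between days. The secreted protease gene Prss23 went from 414 ± 330.0 to 1612 ± 560.3 normalized reads (log2 change 3.33, SE 0.73, limma adjusted p = 0.0271, and 1.85 without replicate 2 at 100 nM on either day), and the secreted metalloprotease gene Adamts16 from 4.18 ± 9.54 to 204 ± 289 (4.97, SE 1.01, adjusted p = 0.0204). Chmp1b, of the ESCRT-III complex, had 0, 0 and 13.1 at 100 nM but 98, 383 and 375 at 500 nM on day 5, and 138, 1249.9 and 212 then 390.1 and 629 on day 6 (4.07, SE 0.81, adjusted p = 0.0204). Mettl23, a methyltransferase gene, was also low only at 100 nM on day 5, at 241, 0.88 and 0 beside 421 to 579.8 at 500 nM, and reached 219 to 679 on day 6 (2.96, SE 0.64, adjusted p = 0.0271). For 6 of the 26 genes, among them Sphkap, Mettl23, Prss23 and C1qtnf3, the p3 libraries spread more than 1.5 times as widely as the pooled estimate used in the test. For Sphkap, which had 0 reads in all 35 libraries of the other types, that ratio was 2.39. The calls of C1qtnf3, Crabp2 and Sphkap held without any 1 of the 11 libraries, whereas each of the other 23 was lost at least 2 times. All these fits kept the pooled spread, which the libraries at 0 lower for Sphkap, so its holding is no separate support. With edgeR the adjusted p was 0.00226 for Crabp2 and 0.254 for C1qtnf3. In limma on the p3 libraries alone it was 0.355 and 0.656. The count of 26 rose to 120, 53, 64 and 127 without replicate 1 or 3 at 100 nM of day 5 or replicate 1 or 3 at 100 nM of day 6. It dropped to 13 without replicate 2 at 100 nM of day 5, to 5 and 10 without replicate 2 or 3 at 500 nM of day 5, and to 11 and 6 without replicate 1 or 3 at 500 nM of day 6.

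**Figure D4:**
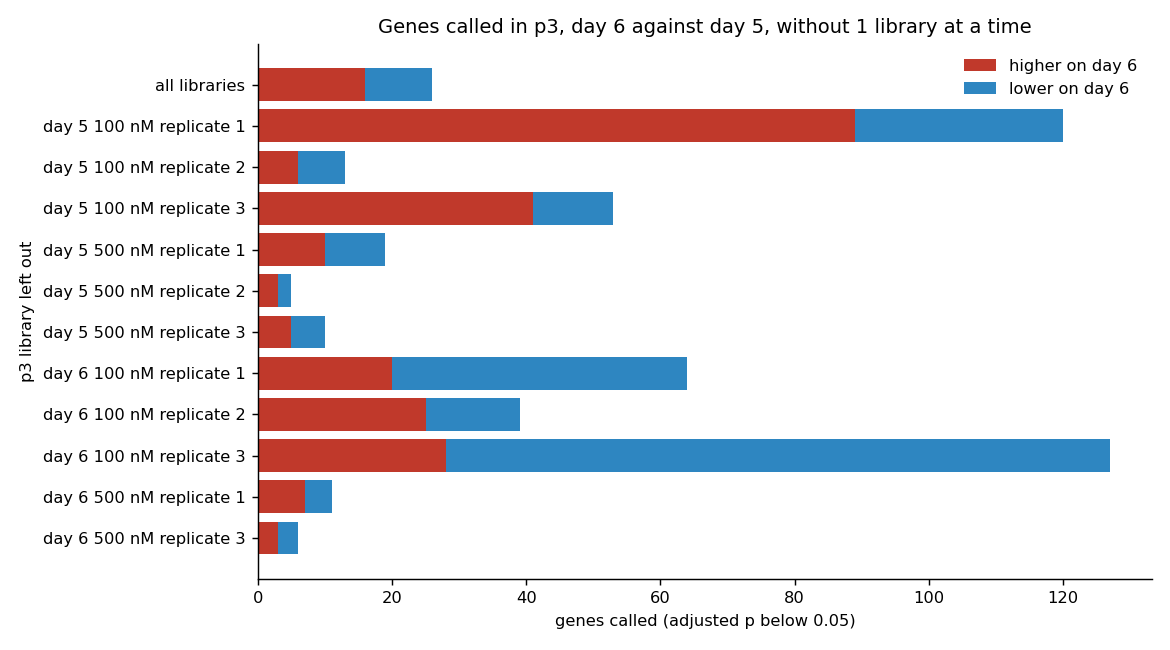
Bars give the number of genes called in p3 between day 5 and day 6 at an adjusted p below 0.05, with all libraries and without each p3 library in turn, in red for genes higher and blue for genes lower on day 6. The count of 26 ran from 5, without replicate 2 at 500 nM of day 5, to 127, without replicate 3 at 100 nM of day 6.

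The day change was also taken at each concentration of SAG. At 100 nM 216 genes were called (1.55%), 100 higher and 116 lower, and at 500 nM 3 were called (0.0215%), C1qtnf3 and Enpp2 higher and Crabp2 lower. Of the 26 genes, 15 were among the 216 and 2 among the 3, and 500 nM had only 2 libraries on day 6. The count at 100 nM fell to 45 and 85 without replicate 2 of day 5 or day 6 and rose to 527 and 423 without replicates 1 or 3 of day 5 and to 502 and 650 without replicates 1 or 3 of day 6. The difference between the concentrations was itself called for 1 gene (0.00716%). Arhgap1, a GTPase activator, had 745, 775 and 517 at 100 nM and 277, 108 and 387 at 500 nM on day 5. It had 0.804, 10.2 and 18.5 at 100 nM and 982 and 463 at 500 nM on day 6, so that it changed by -6.51 at 100 nM and by 1.57 at 500 nM (difference 8.08, limma adjusted p = 0.00125). Leaving out 1 library at a time gave 0 to 58 such genes, with 58 without replicate 3 and 17 without replicate 1 at 100 nM of day 6, 12 without replicate 1 and 6 without replicate 3 at 100 nM of day 5, and 2 or 3 without replicate 2 at 100 nM or replicate 1 at 500 nM of day 5 or replicate 3 at 500 nM of day 6. Arhgap1 was no longer called without replicate 1 at 500 nM of day 6, where the count was 0.

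Part of the day change was seen in other cell types as well. Over the same days 11 genes were called in pMN (0.0788%), 73 in p2 (0.523%) and 33 in p0-1 (0.236%). Of the 26 p3 genes, 3 were also called in pMN (Crabp2, Lin28a and Nnat), 6 in p2 (among them Cpn1, Crabp2, Cyp26b1, Eif4ebp1 and Nnat) and 6 in p0-1 (Cpn1, Cyp26b1, D930028M14Rik, Hspa5, Mir9-3hg and Nnat), all in the direction seen in p3. Lin28a fell in pMN by 2.16 on the log2 scale (limma adjusted p = 0.00236), with -1.11 in p2 (adjusted p = 0.155) and -0.93 in p0-1 (adjusted p = 0.418). Cyp26b1 rose by 6.64 in p2 (adjusted p = 0.00558) and 6.27 in p0-1 (adjusted p = 0.0055), and stood at 5.41 in pMN (adjusted p = 0.0802). Nnat rose in all 3, by 1.17, 0.93 and 0.80.

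**Figure D5:**
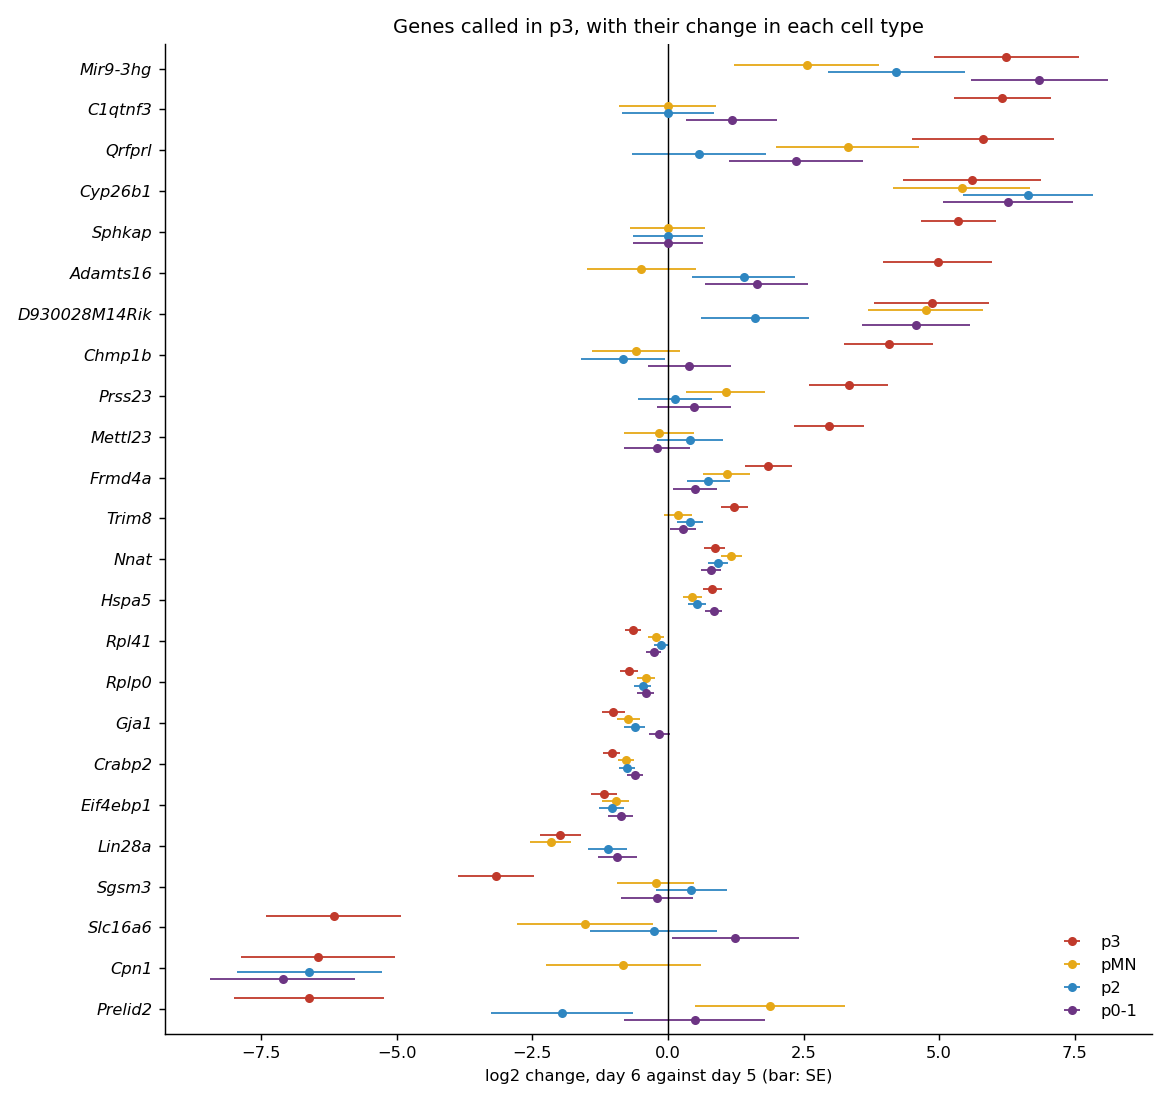
Log2 change from day 5 to day 6, with its standard error as a bar, for 24 of the genes called in p3 (red) and for the same genes in pMN (yellow), p2 (blue) and p0-1 (purple). Crabp2, Nnat and Eif4ebp1 have the same sign in the 4 cell types, whereas Sphkap is at 0.00 outside p3.

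The difference of the day change between p3 and another type was called for 1 gene against pMN (0.00716%), 4 against p2 (0.0286%) and 1 against p0-1 (0.00716%). None of these calls was made when the fit held only the compared libraries. Sphkap was counted in each, by a difference of 5.36 on the log2 scale. All its libraries of the other types were at 0 and add nothing to the spread in the test, so this difference is given as a description. C1qtnf3 was called against p2 (6.17, limma adjusted p = 0.029) and not against pMN (6.17, adjusted p = 0.0864). The difference against p2 equals the change of C1qtnf3 in p3 itself, so its fitted change in p2 was 0. This difference, too, is given as a description. Atp23, a mitochondrial protease gene, and Nkiras1, which encodes an inhibitor of NF-kappa-B signaling, differed from p2 by 7.87 (adjusted p = 0.029) and 8.81 (adjusted p = 0.0134). Both fell in p2, by 5.22 and 5.72, while their p3 values overlapped between days and were 0 in 2 or 3 of the 100 nM libraries of day 5. Prelid2, which fell in p3 and was at 1.88 in pMN, differed from pMN by -8.50 without passing the test (adjusted p = 0.258). Trim8 differed from pMN by 1.04 (adjusted p = 0.88). Leaving out 1 p3 library gave 0 to 7 genes against pMN, 0 to 13 against p2 and 0 to 7 against p0-1. Counts of 0 arose against pMN without replicate 2 or 3 at 500 nM of day 5 or replicate 3 at 500 nM of day 6, against p2 without the last of these, and against p0-1 without replicate 3 at 500 nM of day 5. The highest counts arose without replicate 3 at 100 nM of day 6 against pMN, without replicate 3 at 100 nM of day 5 against p2 and without replicate 2 at 100 nM of day 6 against p0-1.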

How the data were processed

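Gene expression was measured by RNA-seq of fixed, stained and sorted cells. The deposited values are a gene-level signal: the authors aligned reads to mm10 with STAR in an nf-core pipeline, counted them with featureCounts over refGene, ignoring duplicates, and divided the counts by a size factor per library. Whole reads could be recovered for 100.0% of 834400 values above 0 (tolerance 0.01 reads). The authors removed libraries that failed quality criteria, and strand use in counting is not given in the sources used here. Libraries were grouped by their labels. Differences were tested with limma 3.58.1 in R 4.3.3 on log2(value + 1), over 13964 of 25239 genes with a mean of at least 10, with 1 mean for each group over 65 libraries (40 residual degrees of freedom), an intensity trend and Benjamini-Hochberg adjustment. The added 1 can understate changes of low genes. Libraries at 0 can also enlarge or turn a fitted log2 change, as for Mettl23 (2.96 by limma, 1.32 by edgeR) and Olig2 (-0.99 and 0.44). The p3 contrast averages the day 6 minus day 5 differences at 100 and 500 nM. The contrast from day 4 to day 5 was added after the data were seen. Its day 4 side has 1 library at 100 nM and 3 at 500 nM. edgeR 4.0.16 and DESeq2 1.42.0 were run on the recovered reads as alternatives, and the limma step was tested on simulated data. Means ± SD are over libraries, and limits from 0 reads (3 reads per library) cover counting error only. Named genes were the sorting genes, called members of gene lists and uncalled members with their values, and called genes of each comparison, most of them named because they are few, beyond a rule of up to 12 per direction without overlap and up to 3 per direction for comparisons of day changes. Results of some genes are not reported here. The comparison, gene lists and tests were chosen with earlier results of these data known. Figures were drawn with matplotlib 3.10.9.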

Additional observations from a re-analysis of the deposited data

Results flagged for a closer look

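Of 64 groups of 4 to 10 libraries examined for the sorting genes and for the called genes given here, 8 held a library far from the others. On day 5 these were Adamts16 at 23.6 normalized reads, Cyp26b1 at 27.1 and Sphkap at 195, all in replicate 1 at 500 nM. Replicate 3 at 100 nM of day 5 stood out for Lin28a at 3300.0, and replicate 1 at 100 nM for Hspa5 at 13483. On day 6 Hspa5 at 21019 and Slc16a6 at 90.2 stood out in replicate 3 at 500 nM, and Prelid2 at 59.3 in replicate 3 at 100 nM. Each was the highest value of its group.

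The day change of p3 differed between SAG concentrations for Arhgap1, by 8.08 on the log2 scale (limma adjusted p = 0.00125). It differed from that of pMN, p2 and p0-1 for Sphkap, by 5.36 in each case, with 0 reads in all 35 libraries of those types, which leaves the test without spread there. It differed from that of p2 for C1qtnf3 by 6.17 (adjusted p = 0.029), for Atp23 by 7.87 (adjusted p = 0.029) and for Nkiras1 by 8.81 (adjusted p = 0.0134). The difference for C1qtnf3 equals its change in p3, with a fitted change of 0 in p2. The calls against other types were not made with only the compared libraries in the fit. The causes were not tested.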

How the results depend on the processing

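The count of 26 genes called in p3 between day 5 and day 6 was 46 with a pseudocount of 10, 17 with a mean of at least 100, 0 in the 11 p3 libraries alone, 9 with p3 and pMN of days 5 and 6 only (an alternative added after seeing the data), 8 with edgeR, 1020 with DESeq2, 3 at an adjusted p below 0.01 and more than 2-fold, 216 at 100 nM alone and 3 at 500 nM alone. It was 5 to 127 without 1 library. Of the 26 genes edgeR called 7 and DESeq2 21. TMM gave 33, quantile normalization 39, no filter 35, and leaving out replicate 2 at 100 nM on both days (added) gave 24, of which 11 were among the 26. The split of 16 higher and 10 lower was not stable: it was 19 and 20 with quantile normalization, 473 and 547 with DESeq2, 3 and 5 with edgeR, 4 and 5 with p3 and pMN only, 100 and 116 at 100 nM alone, 20 and 44 or 28 and 99 without replicate 1 or 3 at 100 nM of day 6, and 89 and 31 or 41 and 12 without replicate 1 or 3 at 100 nM of day 5. The difference between SAG concentrations, called for 1 gene, gave 3 without a filter, 12 in the p3 libraries alone, 0 with quantile normalization, 2 with edgeR, 763 with DESeq2 and 0 to 58 without 1 library. Against pMN (1 gene) the counts were 0 at a mean of at least 100, 8 without a filter, 0 in the compared libraries alone, 2 with quantile normalization, 0 with edgeR, 749 with DESeq2, 0 at the stricter threshold and 0 to 7 without 1 library. Against p2 (4 genes) they were 2, 5, 0, 1, 1, 877, 0 and 0 to 13 in that order, and against p0-1 (1 gene) 0, 2, 0, 2, 0, 742, 0 and 0 to 7, with 0 at a pseudocount of 10. The sign turned for Nkx2-2 at 100 nM alone (-0.089), Pax6 at 100 nM alone (0.15), Nkx6-1 at 500 nM alone (-0.032) and Sgsm3 at 500 nM alone (0.25), and for Olig2 with edgeR (0.44), with DESeq2 (0.46), at 500 nM alone (0.34), without replicate 2 at 100 nM of day 6 (0.79, the range without 1 library being -1.90 to 0.79) and without that number on both days (0.68). None of these reversed values was called. The causes were not tested.

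No pairing of libraries by replicate number was detected, as correlations of same-numbered deviations ran from -0.011 to 0.073. With 2 or 3 libraries a group, these correlations cannot show that pairing is absent. With the replicate block the count was 46 (23 higher and 23 lower), and 0 in the p3 libraries alone with the block (added). Where 500 nM of day 6 kept 1 library, that library was assumed to vary like the other groups. With 2 or 3 libraries a group and a median SE of 0.88 on the log2 scale over all genes, changes of low genes below several-fold were not detectable here.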
